A study of Homo sapiens with 32 samples.

Results

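The 8 genes described here encode the human DNA topoisomerases TOP1, TOP1MT, TOP2A, TOP2B, TOP3A and TOP3B and the tyrosyl-DNA phosphodiesterases TDP1 and TDP2. They were taken from the 60107 genes of the count table by the Ensembl identifier of each symbol, and all 8 had a row. RNA was measured by 3′ mRNA sequencing in 32 libraries of HEK293T, a transformed human embryonic kidney line, and U2OS, a human osteosarcoma line. By their labels, libraries 26 to 29 are U2OS treated with camptothecin (CPT) and 30 to 33 U2OS with the vehicle DMSO, while libraries 18 to 21 are labelled HEK293T ATM KO and 22 to 25 are DMSO-treated HEK293T. Of the 16 libraries numbered from 1 to 17, libraries 2, 4, 6 and 8 are labelled HEK293T CPT, 3, 5, 7 and 17 HEK293T DMSO, 10, 12, 14 and 16 U2OS ATM KO, and 1, 11, 13 and 15 U2OS WT. HEK293T cells had drug or DMSO for 24 h and then recovered for 48 h, and the study's methods give this scheme for drugs in general. Untreated U2OS cells grew for 72 h. The methods report that the KO lines were made with CRISPR/Cas9 and picked as single clones, and the study describes RNA of an ATM inhibitor, not of a KO, in HEK293T, so libraries 18 to 21 are named by their label only.

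In 14 of the 16 libraries numbered 1 to 17, the profile went against the cell line label, and in libraries 1 (U2OS) and 17 (HEK293T) it did not. CD44 ran from 52.4 to 120 CPM (counts per 1000000 counts on genes) in libraries 1 to 8, against at most 1.22 in libraries 10 to 17. NEFM was at most 1.41 CPM in the former and 126 to 337 in the latter. In the other libraries, CD44 ran from 60.5 to 396 CPM in U2OS and from 2.24 to 9.27 in HEK293T. Summed over 6 U2OS markers, the level was 518 to 942 CPM in libraries 1 to 8 and 38.6 to 100.1 in libraries 10 to 17. The summed 5 HEK293T markers separated the sets less well, at 114 to 225 CPM in libraries 1 to 8 and 343 to 569 in 10 to 17, but 358 to 419 in U2OS DMSO. Of these 5 markers, 2 went against the labels: SOX2, at 182 to 222 CPM in U2OS DMSO and 18.5 to 23.7 in HEK293T DMSO, and NEFL, at 155 to 180.002 CPM and 57.4 to 83.5. Libraries 10, 12, 14 and 16 were therefore compared with 11, 13, 15 and 17, and libraries 2, 4, 6 and 8 with 1, 3, 5 and 7. This grouping reads the former pair as HEK293T CPT against DMSO and the latter as U2OS ATM KO against WT, which the labels do not give, so these libraries are named by number and no condition is drawn from them. ATM, the targeted gene, did not settle it: it had 50.9 ± 11.7 CPM (SD, n = 4) in libraries 2, 4, 6 and 8 against 60.6 ± 6.65 in 1, 3, 5 and 7, 35.0 ± 5.52 in 10, 12, 14 and 16 against 29.6 ± 7.004 in 11, 13, 15 and 17, and 62.2 ± 9.07 in 18 to 21 against 67.7 ± 11.6 in 22 to 25. A tag at the 3′ end need not lie in the edited sequence.

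Topoisomerases cut DNA, let strands pass or turn, and rejoin the ends, holding the cut end through a bond to a tyrosine. Type I enzymes (TOP1, the mitochondrial TOP1MT, TOP3A and TOP3B) cut a single strand and the type II enzymes TOP2A and TOP2B cut both. Camptothecin traps TOP1 on the cut DNA. TDP1 removes a trapped TOP1 from the 3′ end, and TDP2 acts mainly on TOP2 at the 5′ end. TOP2A is made mostly by dividing cells, whereas TOP2B is also made by cells that do not divide.

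Promoter windows of 4 members are shown, since the closely related TOP2A and TOP2B were called in opposite directions in a comparison given further on, with TOP1 and TDP1 as the target of CPT and the enzyme that clears it. Each window runs from 250 bases before to 50 bases after the RefSeq start (GRCh38.p14) and was found for 7 of the 8 genes. Capitals mark matches on either strand to 3 motifs: CCAAT, the box bound by NF-Y, TTTGAA, the core of the element known as CHR in cell cycle genes, and GGGCGG, a GC box. In the RefSeq sequences below, TOP2A lies at chr17:40417847-40418146 (minus strand), TOP2B at chr3:25664858-25665157 (minus), TOP1 at chr20:41028572-41028871 (plus) and TDP1 at chr14:89955677-89955976 (plus).
TOP2A: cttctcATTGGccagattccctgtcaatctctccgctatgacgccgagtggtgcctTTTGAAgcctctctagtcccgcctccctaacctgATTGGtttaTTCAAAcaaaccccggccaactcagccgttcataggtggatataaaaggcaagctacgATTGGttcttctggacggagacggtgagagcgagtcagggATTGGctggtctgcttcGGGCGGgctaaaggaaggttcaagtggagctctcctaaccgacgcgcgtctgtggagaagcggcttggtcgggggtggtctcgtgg
TOP2B: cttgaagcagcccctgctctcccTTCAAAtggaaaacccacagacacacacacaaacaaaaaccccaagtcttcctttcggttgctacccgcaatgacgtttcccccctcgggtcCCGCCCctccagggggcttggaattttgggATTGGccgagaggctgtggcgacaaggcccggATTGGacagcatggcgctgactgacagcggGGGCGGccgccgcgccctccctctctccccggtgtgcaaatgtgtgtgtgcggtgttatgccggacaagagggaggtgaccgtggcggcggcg
TOP1: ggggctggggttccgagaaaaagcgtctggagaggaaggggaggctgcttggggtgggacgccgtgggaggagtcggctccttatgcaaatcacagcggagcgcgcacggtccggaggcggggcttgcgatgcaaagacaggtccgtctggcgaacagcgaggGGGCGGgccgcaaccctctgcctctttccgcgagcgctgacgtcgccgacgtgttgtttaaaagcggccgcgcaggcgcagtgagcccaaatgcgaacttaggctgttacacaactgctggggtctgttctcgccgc
TDP1: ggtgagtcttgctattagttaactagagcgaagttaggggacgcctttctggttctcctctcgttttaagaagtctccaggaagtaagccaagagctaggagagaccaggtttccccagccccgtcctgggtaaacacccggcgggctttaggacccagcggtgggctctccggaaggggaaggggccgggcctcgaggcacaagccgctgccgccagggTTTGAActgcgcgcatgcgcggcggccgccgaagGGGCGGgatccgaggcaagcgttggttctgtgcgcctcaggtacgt

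The TOP2A window held 4 CCAAT, 2 TTTGAA and 1 GGGCGG. TOP2B held 2, 1 and 2 of these, TOP1 only 1 GGGCGG, and TDP1 1 TTTGAA and 1 GGGCGG. A further window of TOP2B had 1 GGGCGG, as did that of TOP3B, and those of TOP3A and TDP2 had 3 and 4. No matches overlapped in these windows. Of 35116 promoter windows of the same length, 34.6% held CCAAT, 15.2% TTTGAA and 45% GGGCGG, and 0.991% held 4 or more CCAAT. These are matches of letters, not sites shown to be bound.

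The members lie on 7 chromosomes in the GENCODE 29 annotation of GRCh38. TOP1 spans chr20:41028818-41124487 (plus strand), TOP2A chr17:40388516-40417950 (minus) and TOP3A chr17:18271428-18315007 (minus). TOP2B spans chr3:25597905-25664907 (minus), TOP3B chr22:21957025-21982816 (minus), TDP1 chr14:89954939-90044768 (plus) and TDP2 chr6:24649977-24667033 (minus). TOP1MT lies on chromosome 8. RARB overlaps TOP2B on the opposite strand with up to 67 counts in a library, and an antisense gene overlaps TOP3B with up to 27. Whether counting used strand is not given in the sources used here.

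Levels are given in CPM of all counts on genes. Since 3′ sequencing yields about 1 tag per transcript, levels of different genes were set side by side without correction for length. Whether repeated reads of the same tag were collapsed was not checked, so the order of members is of counts. TOP2A was the most abundant member in each of the 32 libraries, between 927 and 2263 CPM. TOP1 followed at 171 to 1156 CPM and TOP2B at 95.6 to 314. TOP1MT (12.2 to 44.7), TOP3A (11.5 to 46.3), TDP1 (5.58 to 46.3) and TDP2 (8.17 to 43.2) were far lower. TOP3B had 1 to 7 counts in any library, around the floor of 3 counts, which lies at 0.472 to 2.43 CPM depending on depth. Its values therefore carry little information, and it was called in no comparison.

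**Figure D1:**
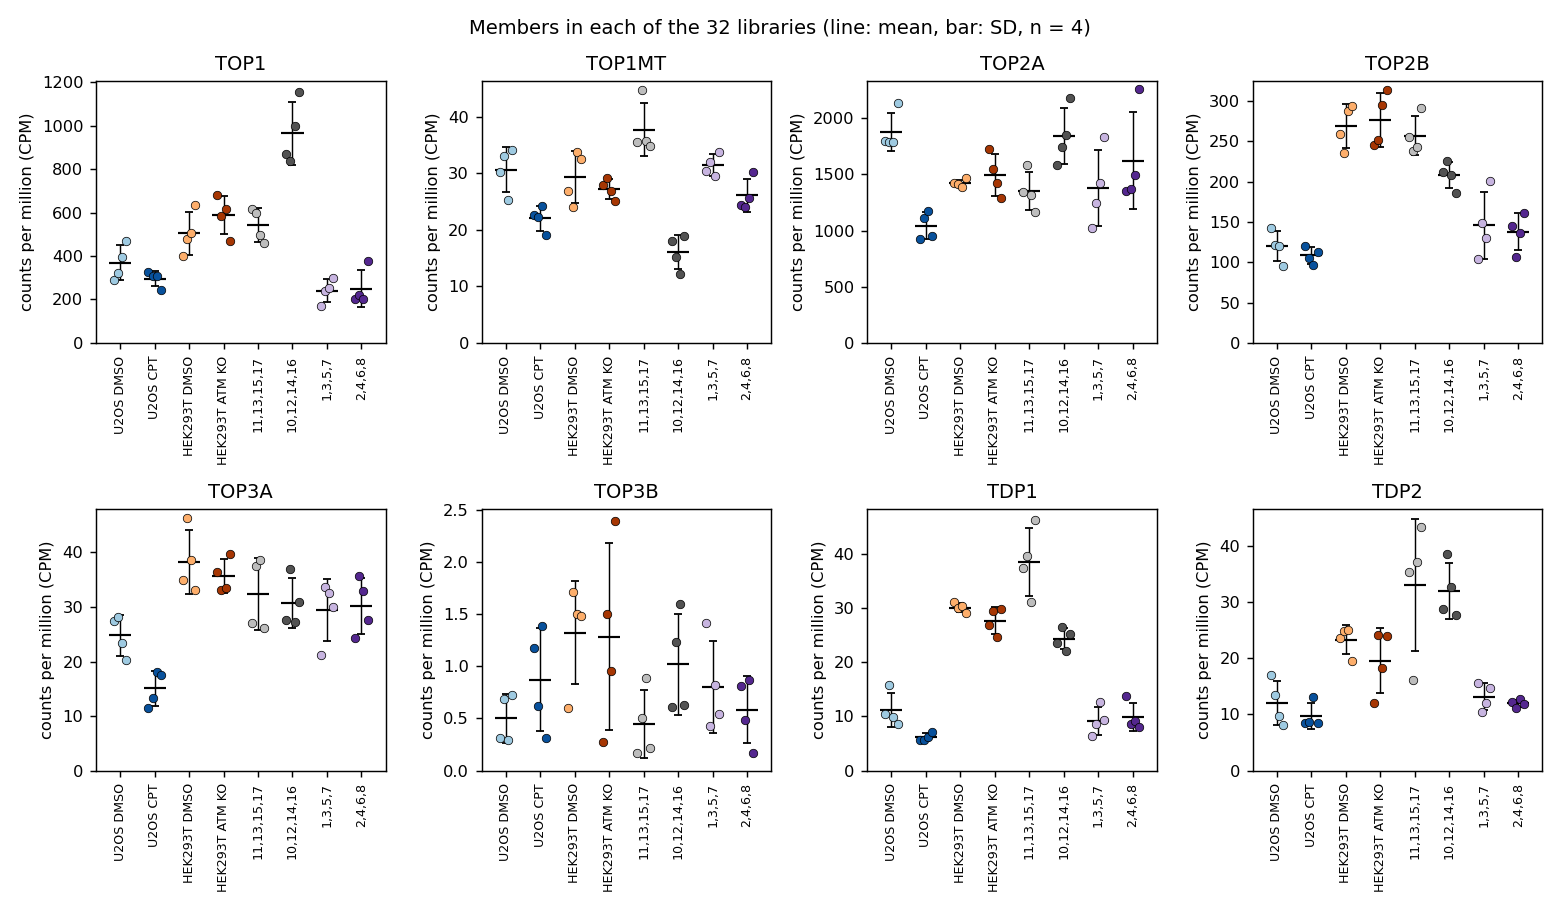
Each panel plots 1 member, with CPM on a linear axis from 0 and the 8 sets of 4 libraries on the horizontal axis. Points are libraries, lines are means and bars are SD. TOP1 stands highest in libraries 10, 12, 14 and 16, TOP2A lowest in U2OS CPT, and TDP1 is at most 15.8 CPM in the 4 sets with a U2OS-like profile.

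The order of the 8 sets, in CPM without the scaling used in the tests below, differed between members. TOP1 was highest in libraries 10, 12, 14 and 16, whose range did not overlap with that of the next set, while each later neighbour in the order overlapped. TOP2A ran from U2OS DMSO (1876 ± 172 CPM) down to U2OS CPT (1041 ± 120), and every set overlapped with its neighbour. TOP1MT was highest in libraries 11, 13, 15 and 17 (37.7 ± 4.67) and lowest in 10, 12, 14 and 16 (16.1 ± 3.05), both apart from their neighbours in CPM. After scaling, libraries 1, 3, 5 and 7, the neighbour of the highest set, were not lower than it (log2 fold change 0.08, edgeR adjusted p = 0.655). For TOP1, TOP2B, TOP3A, TDP1 and TDP2, the 4 sets with a HEK293T-like profile were above the 4 with a U2OS-like profile in mean CPM. For TOP3A this order did not hold throughout after scaling. Its log2 fold change in libraries 1, 3, 5 and 7 against 11, 13, 15 and 17 was 0.23, not called (edgeR adjusted p = 0.230). At the step between the 2 profiles, TDP1 had a gap without overlap in CPM, between 24.3 ± 1.94 in libraries 10, 12, 14 and 16 and 11.2 ± 3.16 in U2OS DMSO. For TOP3A the ranges of neighbouring sets overlapped down the order, and only U2OS CPT (15.1 ± 3.18 CPM) stood apart from its neighbour.

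Whether CPT changes the RNA of its own target and of the enzymes that clear it was asked first in U2OS, libraries 26 to 29 against 30 to 33. TOP2A, TOP3A and TDP1 fell in U2OS after CPT, and no member rose. TOP1 itself did not pass the test. A gene was called at a Benjamini-Hochberg adjusted p under 0.05 in edgeR's quasi-likelihood test over all genes tested, and fold changes are on a log2 scale after TMM scaling. Of 19080 genes tested, 31.9% were called, 16.6% higher and 15.3% lower, against 3 of 8 members, a share near that of all genes. With the study's further requirement of an absolute log2 fold change over 1, 13.5% of genes and 0 members passed. Lower counts in such bulk RNA can come from fewer cells of a type or less RNA per cell, which cannot be told apart.

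TOP2A, the type II enzyme of dividing cells, had 927, 1109, 1174 and 954 CPM in U2OS CPT libraries 26 to 29 and 1793, 1786, 1789.8 and 2134 in DMSO libraries 30 to 33. All CPT libraries were below all DMSO libraries, a 1.61-fold decrease after scaling (log2 fold change -0.68, SE 0.12, edgeR adjusted p = 2.68e-05). Its relative TOP2B was at 120, 105, 96.3 and 113 CPM against 142, 121, 121 and 95.6, with overlapping groups. The log2 fold change of TOP2B was 0.04 (95% interval -0.20 to 0.28, adjusted p = 0.850). The ratio of TOP2A to TOP2B counts was 9.72 ± 2.03 in CPT and 16.1 ± 4.26 in DMSO.

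Genes of dividing cells moved with TOP2A in U2OS. Of 10 such genes (TOP2A not among them), 9 were lower after CPT, from TPX2 at -0.65 to PLK1 at -1.47 on the log2 scale, with MKI67 at -1.14. CDK1, at -0.17 (edgeR adjusted p = 0.258), was not called. Their median log2 fold change was -0.97, against 0.01 over all genes tested. Summed over the list, they had 935 to 1177 CPM in CPT and 2158 to 2237 in DMSO, and none of the 10 was at 0. All 8 listed targets of p53, a factor that halts division after damage, were higher, with a median of 1.88. The cell line markers moved as well. All 6 U2OS markers were higher after CPT (median 1.32, CD44 at 2.72), with a summed level of 1198 to 1289 CPM against 446 to 508. Of the 5 HEK293T markers, 4 could be tested and SOX2 was lower at -4.08, with 8.06 to 13.4 CPM against 182 to 222, and NEFM was at or near 0 in both groups. The part of these lists in the changes of TOP2A, TOP3A and TDP1 was not tested.

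**Figure D2:**
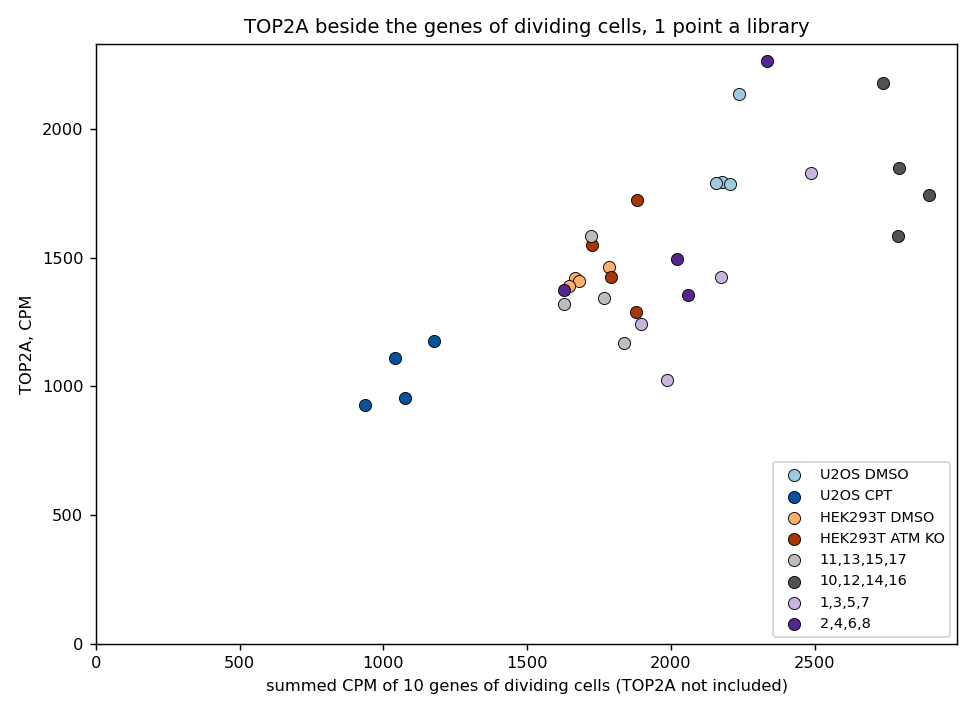
TOP2A in CPM (vertical axis) is plotted against the summed CPM of 10 genes of dividing cells (horizontal axis), with 1 point per library coloured by set. The 4 U2OS CPT libraries lie apart at the lower left, at no more than 1174 CPM of TOP2A, and libraries 10, 12, 14 and 16 lie furthest right.

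TOP1, the target of CPT, had 326, 307, 307 and 245 CPM in U2OS CPT and 287, 324, 396 and 468 in DMSO. The groups overlapped, and library 33 was the highest. The log2 fold change was -0.16 (95% interval -0.45 to 0.13, adjusted p = 0.427). TOP1MT, its mitochondrial relative, had 22.7, 22.3, 24.2 and 19.03 CPM against 30.3, 33.03, 25.2 and 34.1. These groups did not overlap, but at -0.31 (SE 0.15, adjusted p = 0.118) the difference missed the threshold.

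TDP1, which clears trapped TOP1, had 5.59, 5.58, 6.23 and 7.17 CPM in U2OS CPT and 10.5, 15.8, 9.96 and 8.65 in DMSO. Every CPT library was lower, with 18 to 23 counts against 34 to 46 (log2 fold change -0.68, SE 0.23, edgeR adjusted p = 0.0222). This call is the least firm: the adjusted p was 0.0684 in DESeq2 and 0.0577, 0.0589 and 0.101 without library 26, 27 or 31. TDP2 was at 8.42 to 13.2 CPM in CPT and 8.17 to 16.98 in DMSO, and the groups overlapped (log2 fold change -0.12, 95% interval -0.57 to 0.32, adjusted p = 0.722).

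TOP3A, which with BLM and RMI1 resolves joined DNA molecules, had 11.5, 13.3, 18.01 and 17.5 CPM in U2OS CPT and 27.5, 28.2, 23.4 and 20.2 in DMSO. The groups did not overlap, and the log2 fold change was -0.54 (SE 0.17, edgeR adjusted p = 0.0124). Without library 26 it was -0.43 and no longer called (adjusted p = 0.0630), and only TOP2A of the 8 members was then called. TOP3B had 4, 2, 4 and 1 counts against 1, 2, 1 and 3.

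A list of 28 genes that act with the topoisomerases or on their trapped forms had 4 members higher and 8 lower in U2OS after CPT. These 12 of 28 stood beside 31.9% of all genes called (16.6% higher, 15.3% lower). Their median log2 fold change was -0.21, against 0.01 over all genes. Among the 5 partners of TOP3 enzymes, 3 were lower and none higher: RMI2 at -1.24, RMI1 at -0.999 and BLM at -0.96 (edgeR adjusted p = 3.20e-06, 2.92e-05 and 1.01e-06). In single-strand break repair, 2 of 5 genes were lower and 1 higher. The scaffold XRCC1 fell by 1.03 on the log2 scale (adjusted p = 0.000704) and the break sensor PARP1 by 0.31 (adjusted p = 0.0278). APTX, which acts on failed ligation ends, rose by 0.65 (adjusted p = 0.000248). UCHL3, a deubiquitinase of TDP1, rose by 0.83 (adjusted p = 0.000235) and ZNF451, a SUMO ligase that acts with TDP2, by 0.36 (adjusted p = 0.00961). CUL4B, a ubiquitin ligase scaffold, rose by 0.44 (adjusted p = 0.00578), whereas PIAS4, a SUMO ligase, was lower at -0.51 (adjusted p = 0.0203). The nucleases MRE11 and RBBP8 were lower at -0.36 and -0.54, and the other 6 nucleases of the list were not called.

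**Figure D3:**
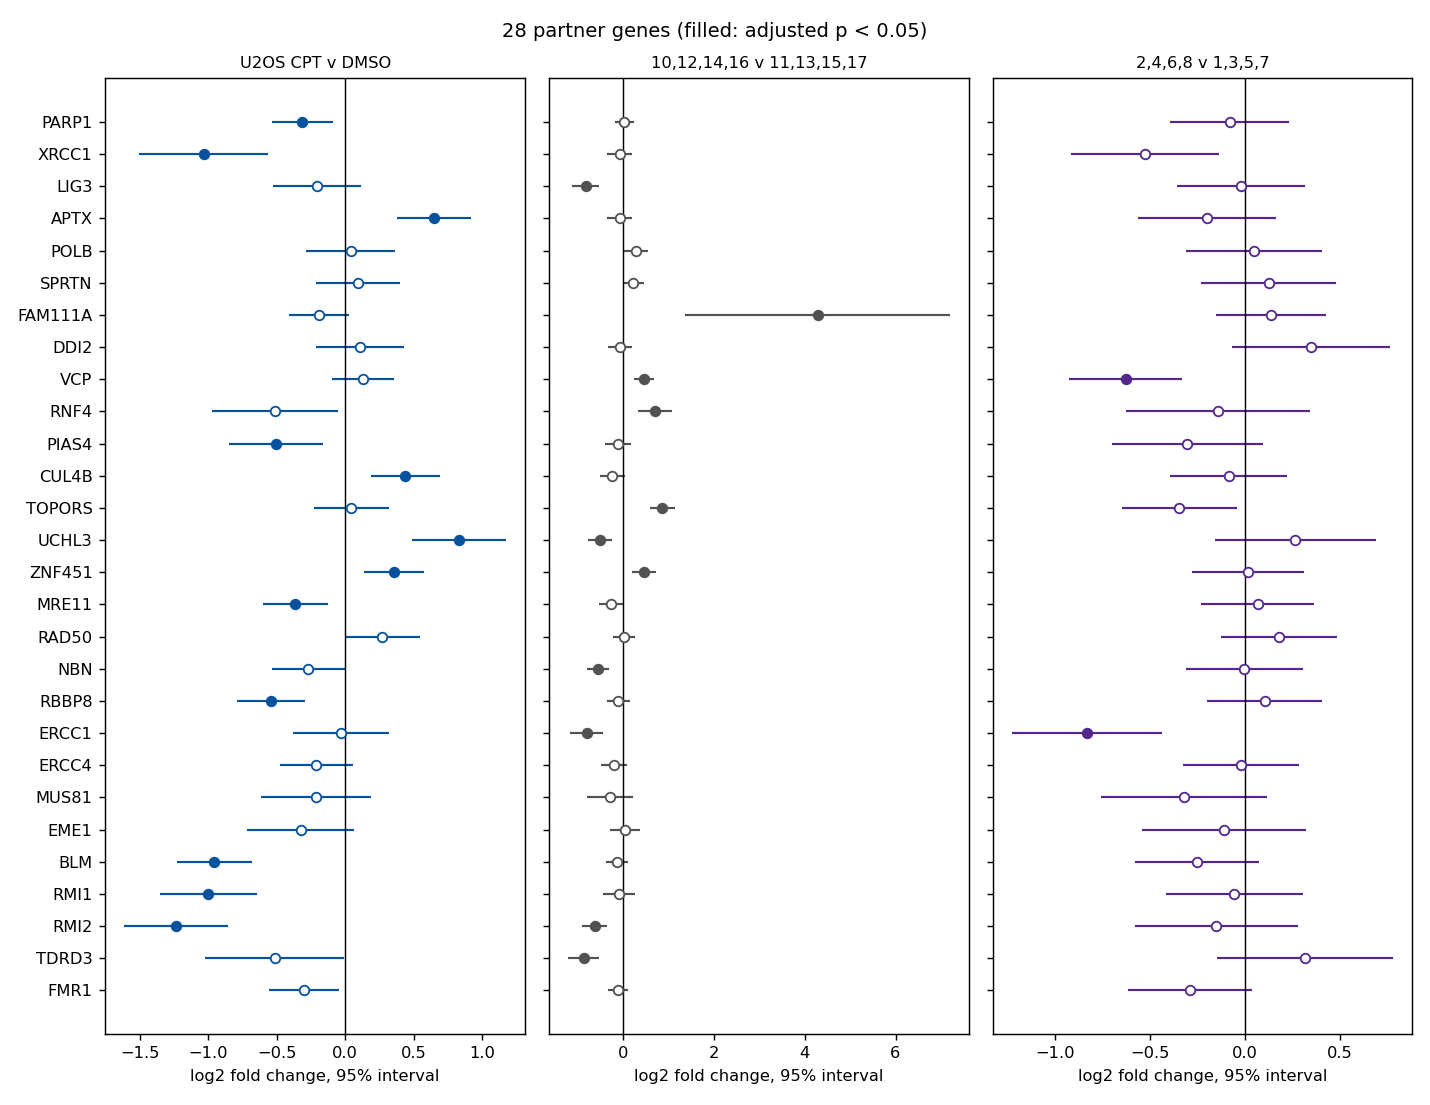
The log2 fold change (horizontal axis, with its 95% interval) of the 28 partner genes is plotted in 3 comparisons, with filled points for genes called. In U2OS CPT against DMSO, 12 points are filled, of which 8 are left of 0, against 11 and 2 filled points in the other panels.

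In libraries 10, 12, 14 and 16 against 11, 13, 15 and 17, 5 of 8 members were called, against 34.9% of 19464 genes (17.6% higher, 17.3% lower). TOP1 and TOP2A were higher, whereas TOP1MT, TDP1 and TOP2B were lower. With an absolute log2 fold change over 1, 14% of genes and 1 member (TOP1MT) passed. TOP1 had 872, 837, 997 and 1156 CPM in the even-numbered libraries and 616, 599, 498 and 458 in the odd-numbered. The ranges were far apart, and the log2 fold change was 0.80 (SE 0.13, edgeR adjusted p = 3.61e-05). The share of all counts held by the table's summary rows, which name no gene, also separated these sets, at 17.02% to 19.8% against 10.9% to 12.4%. Of the U2OS markers 3 of 6 were higher and 1 lower, and of the HEK293T markers 2 of 5 were higher and 1 lower. The part of either in the members' changes was not tested.

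TOP1MT showed the opposite direction in the same libraries. It had 18.1, 15.1, 12.2 and 18.9 CPM against 35.5, 44.7, 35.8 and 34.8. Every even-numbered library was below every odd-numbered library, at a log2 fold change of -1.24 (SE 0.17, edgeR adjusted p = 4.12e-06), or 2.37-fold lower. TOP1 and TOP1MT encode enzymes of the same type for the nucleus and the mitochondrion.

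TOP2A had 1585, 1742, 1848 and 2178 CPM in libraries 10, 12, 14 and 16 and 1343, 1583, 1318 and 1168 in libraries 11, 13, 15 and 17. Library 10 exceeded library 13 only slightly, and the log2 fold change was 0.41 (SE 0.12, edgeR adjusted p = 0.0120). TOP2B had 212, 226, 208 and 186 CPM against 256, 238, 243 and 291. The groups did not overlap (log2 fold change -0.33, SE 0.11, adjusted p = 0.0205), but without library 16 or 17 the adjusted p was 0.0588 or 0.0693. The ratio of TOP2A to TOP2B was 8.94 ± 1.93 against 5.33 ± 1.08. Genes of dividing cells moved with TOP2A here too, 8 of 10 higher and none lower, with a summed level of 2736 to 2898 CPM against 1627 to 1835. Targets of p53 were higher for 6 of 8, and the part of either list was not tested.

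TDP1 had 23.6, 26.5, 22.1 and 25.1 CPM in libraries 10, 12, 14 and 16 and 37.4, 39.6, 31.1 and 46.3 in libraries 11, 13, 15 and 17. The groups did not overlap, and the log2 fold change was -0.69 (SE 0.15, edgeR adjusted p = 0.000875). TDP2 overlapped at 27.7 to 38.6 CPM against 16.1 to 43.2 (-0.06, 95% interval -0.47 to 0.35, adjusted p = 0.844). TOP3A overlapped too, at 27.2 to 37.0 CPM against 26.2 to 38.7 (-0.11, 95% interval -0.44 to 0.23, adjusted p = 0.653).

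Of the 28 partners, 5 were higher and 6 lower in libraries 10, 12, 14 and 16. These 11 of 28 were near the 34.9% of all genes called. The higher genes included ligases and a segregase that act on trapped proteins: TOPORS at 0.87, RNF4 at 0.71 and VCP at 0.46 on the log2 scale (edgeR adjusted p = 2.27e-05, 0.00352 and 0.00204). TDRD3, the partner of TOP3B, was lower at -0.86 (adjusted p = 0.000319), the ligase LIG3 at -0.82 (adjusted p = 0.000147) and the nuclease subunit ERCC1 at -0.80 (adjusted p = 0.00111). FAM111A, a protease that acts on proteins trapped on DNA, was also called higher (adjusted p = 0.0216) on 8 counts in all, 0 to 4 a library, against 0 in libraries 11, 13, 15 and 17. It was the 1 partner called past an absolute log2 fold change of 1 there, and no fold is given at these counts. Grouped by label instead, U2OS ATM KO against U2OS WT, which exchanges library 17 for library 1, TOP1MT was the 1 member called (log2 fold change -1.28, adjusted p = 0.0151).

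In libraries 2, 4, 6 and 8 against 1, 3, 5 and 7, 0 of 8 members were called, against 13% of 18591 genes (6.43% higher, 6.54% lower, and 5.23% past an absolute log2 fold change of 1). None had an unadjusted p under 0.05 in edgeR, and edgeR's likelihood ratio test and DESeq2 also called 0. TOP1 had 202, 219, 203 and 378 CPM against 171, 238, 255 and 299, with wide overlap (log2 fold change 0.02, 95% interval -0.30 to 0.34, adjusted p = 0.963). TOP2A had 1356, 1373, 1494 and 2263 CPM against 1025, 1240.4, 1425 and 1828 (0.20, 95% interval -0.14 to 0.54, adjusted p = 0.520). In both genes library 8 was the highest, and within these sets depth was uneven, from 1232674 counts in library 2 to 5818796 in library 8. The part of depth was not tested. TDP1 had 9 to 53 counts a library, and its log2 fold change was -0.07 (95% interval -0.58 to 0.43). The log2 fold change was -0.29 for TOP1MT (95% interval -0.63 to 0.05), -0.12 for TOP2B (-0.43 to 0.19), 0.00013 for TOP3A (-0.41 to 0.41) and -0.15 for TDP2 (-0.60 to 0.29), each with 0 inside its interval. Of the partners, ERCC1, a subunit of a nuclease that can cut off trapped TOP1, fell by 0.83 (adjusted p = 0.00193) and VCP by 0.63 (adjusted p = 0.00198) on the log2 scale, and 26 of 28 were not called. Of the genes of dividing cells 1 of 10 was lower, and of the p53 targets 3 of 8 were higher.

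In HEK293T libraries 18 to 21, labelled ATM KO, against DMSO libraries 22 to 25, 0 of 8 members were called. Of 18413 genes tested, 1 was called, or 0.00543%. Without library 21, 44 genes were called higher and 53 lower of 18194, and still 0 members. TOP1 was at 679, 585, 616 and 470 CPM against 399.9, 477, 508 and 637. These groups overlapped, and TOP1 was the 1 member with an unadjusted p under 0.05 (log2 fold change 0.28, 95% interval 0.01 to 0.55, edgeR adjusted p = 0.882). The likelihood ratio test and DESeq2 also called 0 members. TOP2A was at 1289 to 1722 CPM against 1389 to 1465 (0.14, 95% interval -0.09 to 0.37). TDP1 (-0.06, 95% interval -0.32 to 0.20) and TOP2B (0.09, 95% interval -0.12 to 0.31) had intervals around 0, as had TOP1MT (-0.04, 95% interval -0.33 to 0.25), TOP3A (-0.04, 95% interval -0.30 to 0.22) and TDP2 (-0.20, 95% interval -0.55 to 0.14), and none of the 28 partners, 10 genes of dividing cells or 8 p53 targets was called.

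**Figure D4:**
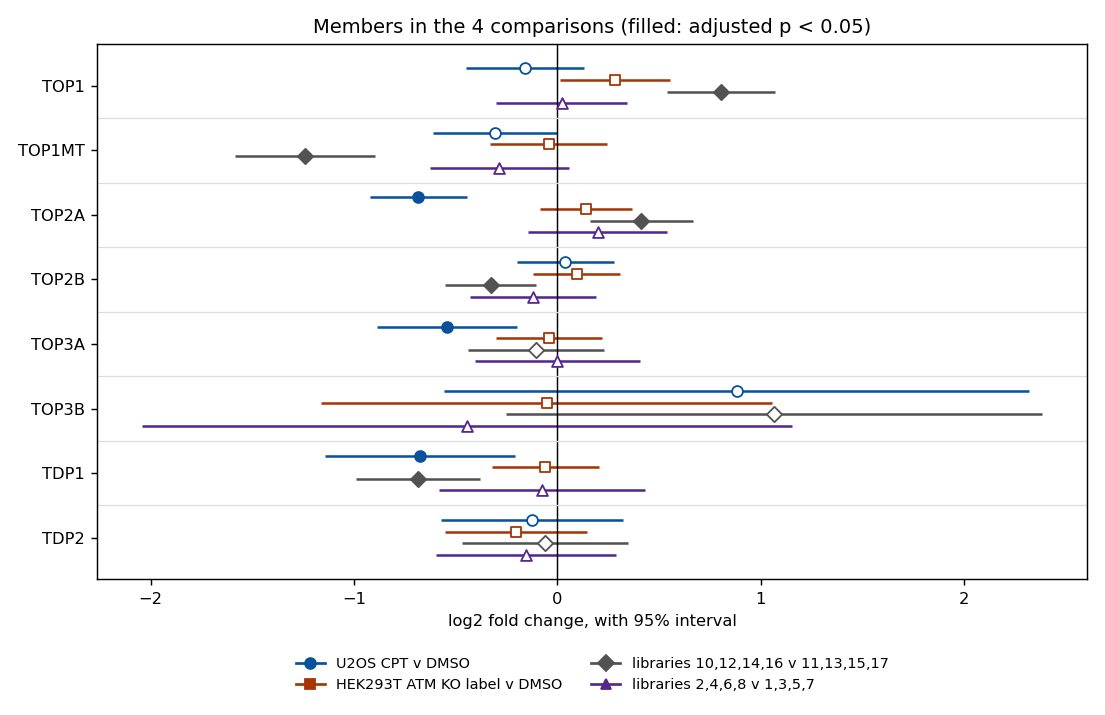
The log2 fold change of each member (horizontal axis, with its 95% interval) is shown for 4 comparisons, with filled symbols where the adjusted p was under 0.05. TOP2A is filled left of 0 in U2OS CPT against DMSO (-0.68) and right of 0 in libraries 10, 12, 14 and 16 against 11, 13, 15 and 17 (0.41), while TDP1 is filled left of 0 in both.

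The difference between responses was tested as an interaction. The change of U2OS CPT against DMSO minus that of libraries 10, 12, 14 and 16 against 11, 13, 15 and 17 was called for 3 of 8 members, against 20.4% of 22363 genes (9.9% higher, 10.5% lower, and 11.9% past an absolute value of 1, among them TOP2A). It was -1.09 for TOP2A (SE 0.18, edgeR adjusted p = 1.17e-05) and -0.96 for TOP1 (SE 0.21, adjusted p = 0.000512), both below 0, and 0.93 for TOP1MT (SE 0.23, adjusted p = 0.00242). For TDP1, lower in both comparisons, the difference was 0.01 (95% interval -0.61 to 0.64, adjusted p = 1.00). TOP2B (0.38, adjusted p = 0.0964), TOP3A (-0.44, adjusted p = 0.214) and TDP2 (-0.06, adjusted p = 0.991) were not called. Against libraries 2, 4, 6 and 8 (relative to 1, 3, 5 and 7), 1 member, TOP2A, differed (-0.88, SE 0.21, adjusted p = 0.00163), against 17.7% of 20539 genes (9.01% higher, 8.69% lower, and 10.8% past an absolute value of 1, with 0 members). The others were not called there, at -0.54 for TOP3A, -0.59 for TDP1, -0.18 for TOP1, -0.02 for TOP1MT, 0.16 for TOP2B and 0.02 for TDP2 (adjusted p 0.129 to 0.988). In the first difference, all 10 genes of dividing cells were called lower too (median -1.66). In the second, 9 of them were lower and 1 higher (median -0.72), and their part was not tested. These tests of differences reuse the libraries of the comparisons above and are not independent of them.

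Members also differed between the lines without drug. In U2OS DMSO (libraries 30 to 33) against HEK293T DMSO (22 to 25), 5 of 8 members were called, against 62.1% of 19739 genes (32% higher, 30.1% lower). The members' share was thus near that of all genes. Past an absolute log2 fold change of 1 were 39.9% of genes and 1 member, TDP1. These libraries are also the controls of comparisons above. TOP2A was higher in U2OS, at 1786 to 2134 CPM against 1389 to 1465 (log2 fold change 0.63, SE 0.11, edgeR adjusted p = 3.57e-06). Of the 10 genes of dividing cells, 8 were higher and 1 lower (median 0.69), and their part was not tested. TOP2B was lower, with 142, 121, 121 and 95.6 CPM in U2OS and 259, 236, 288 and 294 in HEK293T. No library overlapped, and the log2 fold change was -0.95 (SE 0.11, adjusted p = 6.71e-09). The ratio of TOP2A to TOP2B was 16.1 ± 4.26 in U2OS and 5.32 ± 0.525 in HEK293T.

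Both phosphodiesterases were lower in U2OS DMSO than in HEK293T DMSO. TDP1 had 8.65 to 15.8 CPM against 29.03 to 31.1, without overlap (-1.22, SE 0.17, edgeR adjusted p = 1.56e-07), the largest difference of a called member here. TDP2 had 8.17 to 16.98 CPM against 19.6 to 25.1 (-0.75, SE 0.18, adjusted p = 0.000580), and TOP3A 20.2 to 28.2 against 33.2 to 46.3 (-0.41, SE 0.14, adjusted p = 0.0140; 0.0839 without library 23). TOP1 overlapped at 287 to 468 CPM against 399.9 to 637 (-0.22, adjusted p = 0.187), and without library 33 it was called at -0.38 (adjusted p = 0.00748). TOP1MT had 25.2 to 34.1 CPM against 23.99 to 33.8, again overlapping (0.29, 95% interval -0.01 to 0.59, adjusted p = 0.0874). Cell line and library set go together in this comparison, and summary rows held 34.3% to 39.4% of counts in U2OS and 24.7% to 31.3% in HEK293T.

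Libraries 1, 3, 5 and 7 (U2OS-like) against 11, 13, 15 and 17 (HEK293T-like) gave 5 of 8 members called, against 64.4% of 19435 genes (33.3% higher, 31.1% lower). This share is also near that of all genes. Past an absolute log2 fold change of 1 were 44.6% of genes and again 1 member, TDP1. TDP1 had 6.35, 8.65, 12.6 and 9.27 CPM against 37.4, 39.6, 31.1 and 46.3 (-1.65, SE 0.20, edgeR adjusted p = 3.73e-09). TDP2 (-0.97, adjusted p = 0.000247), TOP1 (-0.82, adjusted p = 4.24e-06) and TOP2B (-0.46, adjusted p = 0.00380) were lower too. TOP2A was called at 0.37 (adjusted p = 0.0229), but its levels overlapped, at 1025 to 1828 CPM against 1168 to 1583, and the call was lost without library 3, 5, 7, 15 or 17 (0.20 to 0.36, adjusted p 0.0513 to 0.228). Of the 10 genes of dividing cells, 6 were higher and 1 lower (median 0.72), and their part was not tested. TOP1MT (0.08, 95% interval -0.23 to 0.40) and TOP3A (0.23, 95% interval -0.11 to 0.58) were not called. Summary rows held 23.9% to 34.2% of counts against 10.9% to 12.4%, and the part of this was not tested. By the labels as deposited, U2OS WT against all 8 HEK293T DMSO libraries, 0 members were called, and these mix both profiles in each group.

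**Figure D5:**
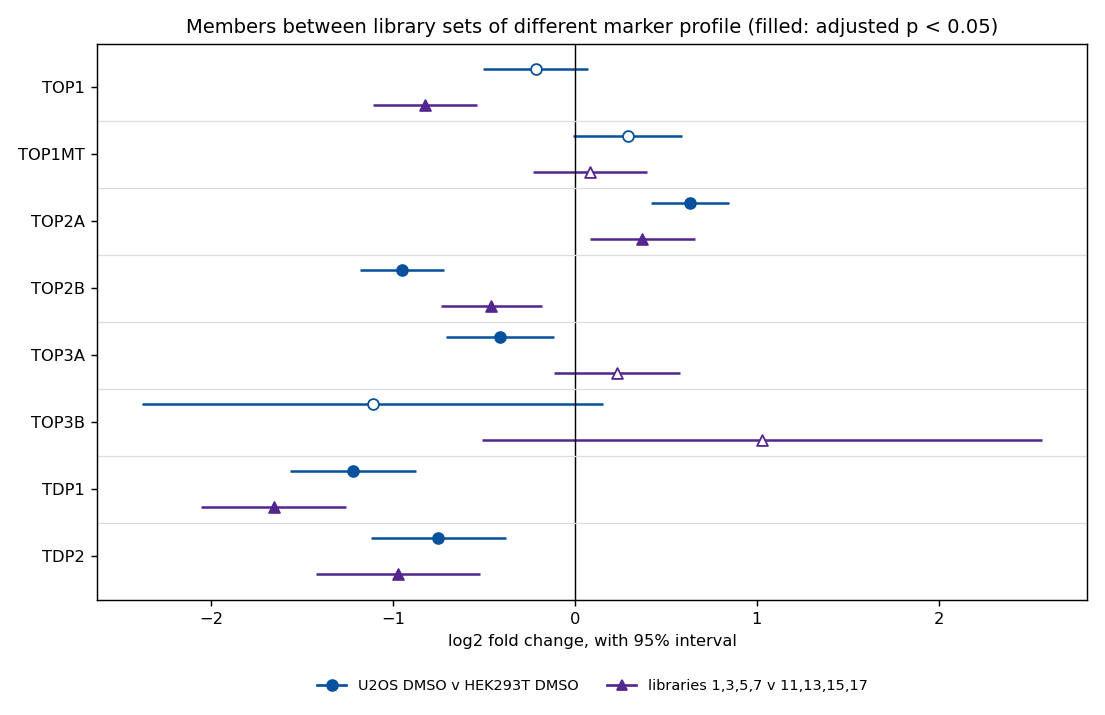
Log2 fold changes (horizontal axis, with 95% intervals) of the 8 members are shown for U2OS DMSO against HEK293T DMSO and for libraries 1, 3, 5 and 7 against 11, 13, 15 and 17, with filled symbols for calls. TDP1, TDP2 and TOP2B are filled left of 0 in both.

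Across the 32 libraries, each centred on the mean of the 8 libraries of its comparison, TOP1 and TOP2A had the highest correlation of any pair of members (Pearson r = 0.746, as a description). The genes most like each member were sought among 5451 genes with a mean log2 CPM over 5. For TOP2A they were NDC80 (r = 0.929), BAZ1B (0.929) and NUSAP1 (0.924), of which NDC80 and NUSAP1 act in the mitotic spindle. For TOP1 they were MFAP1 (0.953), RSF1 (0.923) and HSP90AA1 (0.922), and for TOP1MT CHID1 (0.905), ATP5MC2 (0.888) and MRPS34 (0.887). The best matches of TOP2B (CPNE3, 0.803), TDP1 (MCUR1, 0.817), TDP2 (MMUT, 0.791) and TOP3A (CENPJ, 0.765) were lower. The points share libraries, depth and treatment, so these values describe likeness only.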

How the data were processed

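RNA of HEK293T and U2OS cells was measured with the Lexogen QuantSeq 3′ FWD kit with UMIs in 32 libraries. The authors deposited counts per gene, not normalized, made with the kit's pipeline on the BlueBee platform. Aligner, genome build and annotation release are not given in the sources used here, and whether UMIs were collapsed was not checked. Of the table, 5 summary rows (10.9% to 40.6% of all counts) and 92 spike-in rows were left out, and 60107 genes were kept. Symbols and coordinates came from GENCODE 29 (GRCh38), for 56104 identifiers, and promoters from RefSeq (GRCh38.p14). The depth of a library, as counts on genes, was 1232674 to 6362433 (median 3359464), so that the floor of 3 counts lies between 0.472 and 2.43 CPM. Floors cover counting error only.

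Following the study's filter, genes needed over 1 count in 2 or more libraries of a comparison. They were tested by edgeR's quasi-likelihood test (version 4.0.16, R 4.3.3) after TMM scaling, with Benjamini-Hochberg adjustment over all genes tested and a threshold of 0.05. Intervals are 95%. The methods of the study use the likelihood ratio test and an absolute log2 fold change over 1, which were run as alternatives beside DESeq2 1.42.0, RLE scaling, filterByExpr, no filter, all 32 libraries in one fit, grouping by label, and each library left out. Library totals without scaling were added after seeing the data. The scripts were tested on simulated counts. Within each set of 4 libraries, no pair held identical values, and none agreed within counting noise (lowest chi-square per degree of freedom 1.73). Pairs from different sets were not compared.

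The study reports 4 independent repeats for each experiment. The members and the lists (28 partners, cell line markers, dividing cells, p53 targets) were chosen with earlier results of these data known. All members are named in every comparison, except TOP3B, whose few counts are described once, and of the partners the 3 with the largest change in each direction at a mean log2 CPM over 3. BLM, ZNF451, MRE11, RBBP8, PARP1 and PIAS4 in U2OS, and FAM111A in libraries 10, 12, 14 and 16, were named after their values were seen. A further partner gene is not reported here.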

Additional observations from a re-analysis of the deposited data

Results flagged for a closer look

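In 64 sets of 4 libraries, 1 library of a set stood far from the other 3 in 5 cases, by Dixon's criterion, which chance meets in about 1 in 20 sets. Among libraries 2, 4, 6 and 8, library 8 had 378 CPM of TOP1 where the others had 202 to 219, and 2263 CPM of TOP2A where the others had 1356 to 1494. Among U2OS DMSO libraries, library 33 had 2134 CPM of TOP2A where the others had 1786 to 1793, and it also had the most counts of its set (4161068). Library 13 had 44.7 CPM of TOP1MT, above 34.8 to 35.8 in libraries 11, 15 and 17. Among U2OS CPT libraries, library 28 had 13.2 CPM of TDP2, above 8.42 to 8.69 in the others.

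Changes differed between comparisons by a test of the difference itself in 4 cases. The log2 change in U2OS CPT minus that in libraries 10, 12, 14 and 16 was -0.96 for TOP1, -1.09 for TOP2A and 0.93 for TOP1MT (edgeR adjusted p = 0.000512, 1.17e-05 and 0.00242). The same minus that in libraries 2, 4, 6 and 8 was -0.88 for TOP2A (edgeR adjusted p = 0.00163). In the former 3, cell line, treatment, any difference in dose and library set cannot be told apart. The study gives a higher CPT dose for the proteomics of U2OS than of HEK293T, with RNA taken from the same cells. In the last, both sides had a U2OS-like profile, and treatment and library set cannot be told apart.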

How the results depend on the processing

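Over the values of single members, leaving out 1 library kept the side of the threshold in 627 cases, lost a call in 12 and gained one in 1. Other settings kept 457, lost 9, gained 3 and reversed 3. These counts do not describe the direction of members that were not called. With an absolute log2 fold change over 1, the members called were 0 for U2OS CPT, 1 for libraries 10, 12, 14 and 16, 1 for U2OS DMSO against HEK293T DMSO, 1 for libraries 1, 3, 5 and 7 against 11, 13, 15 and 17, and 1 and 0 for the differences between responses (against libraries 10, 12, 14 and 16, and 2, 4, 6 and 8). Leaving out 1 library gave 1 to 3 members called for U2OS CPT. Grouping by label gave 1 member for U2OS ATM KO against U2OS WT, 0 for HEK293T CPT against HEK293T DMSO, and 0 for libraries 18 to 21 against all 8 HEK293T DMSO. For U2OS WT against all 8 HEK293T DMSO it gave 0, with TOP2A at -0.10, TDP1 at 0.26 and TDP2 at 0.30 on the log2 scale, reversed from U2OS DMSO against HEK293T DMSO. In these groups libraries of both profiles are mixed.

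Library totals without scaling factors, added after seeing the data, moved the median log2 fold change of all genes from 0.01 to -0.16 in U2OS CPT, from 0.01 to -0.21 in U2OS DMSO against HEK293T DMSO, from -0.01 to -0.35 in libraries 1, 3, 5 and 7 against 11, 13, 15 and 17, from -0.06 to -0.26 and from -0.04 to -0.24 in the differences between responses. TOP1MT was then called in U2OS CPT (-0.48, edgeR adjusted p = 0.0172), TOP1 in U2OS DMSO against HEK293T DMSO (-0.45, adjusted p = 0.00345) and TOP3A in the difference from libraries 2, 4, 6 and 8 (-0.74, adjusted p = 0.0380), which made 2 members there. TOP2A was lost in libraries 1, 3, 5 and 7 against 11, 13, 15 and 17 (0.03, adjusted p = 0.877), as in one fit of all 32 libraries (0.26, adjusted p = 0.116). For U2OS CPT, library totals gave 2281 genes higher and 4254 lower, against 3176 and 2917 after TMM scaling. In the difference from libraries 10, 12, 14 and 16 they gave 1469 and 3316, against 2213 and 2338. The difference from libraries 2, 4, 6 and 8 had 1205 and 2638, against 1850 and 1785. Why was not tested. No paired analysis was possible because the labels give no replicate numbers shared by the groups. Depth limits TOP3B in every library and TDP1 and TDP2 in the U2OS-like ones.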
